A study of Mus musculus with 7 samples.

Results

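Fos peaks were examined around 8 marker genes of brain endothelium, the cells that line the vessels of the brain and form the blood-brain barrier: Cldn5, Pecam1, Flt1, Kdr, Tek, Tie1, Slco1a4 and Abcb1a. The members are set by a list of gene names, with no peak value in the rule. The list was chosen with earlier results of these data known, so it is not independent of them. A peak counted for a gene if any base of it lay in the gene's window, which is the RefSeq span of the gene on GRCm38.p6 and 50 kb on each side. The 8 windows cover 1460 kb, share no base, and are 8 of the 21883 protein-coding genes with coordinates. The windows hold 26 of the 68873 regions that result when overlapping peaks of the 6 lists are merged. The libraries came from the hippocampus of wild-type C57BL/6J mice aged 2 months, by chromatin immunoprecipitation and sequencing (ChIP-seq) with a monoclonal antibody against Fos. There were 3 libraries from animals given saline and 3 from animals given kainic acid, with 1 input library not analysed here. Kainic acid, which excites neurons through glutamate receptors and so causes seizures, was injected into the peritoneum 2 times at 10 mg/kg, 30 min apart. Mice that reached seizure level 4 were taken 1 hour after the first dose. Neither the number of animals behind a library nor their separation between libraries is given in the labels, so p-values measure only the spread between these libraries, which may be in part technical. The chromatin came from all cells of the tissue, so a peak near an endothelial gene cannot be assigned to endothelial cells, and a peak list does not measure expression, by which the cell type could be checked.

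Fos pairs with a Jun protein to form AP-1, a transcription factor that cells make within minutes of strong stimulation and that binds mostly at enhancers away from gene starts. Brain endothelial cells are joined by tight junctions, sense growth signals through the vascular endothelial growth factor (VEGF) and angiopoietin receptors, and carry transporters that keep many compounds out of the brain. Cldn5 encodes the main tight junction claudin of these cells and Pecam1 an adhesion protein of their contacts. Flt1 and Kdr encode VEGF receptors, of which Kdr carries most of the growth signal and Flt1 binds the ligand tightly. Tek encodes the angiopoietin receptor and Tie1 its related co-receptor. Slco1a4 encodes an organic anion transporter and Abcb1a the drug efflux pump P-glycoprotein.

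The start of a gene was under or beside a called peak at few places in these windows, and 3 of them are shown by sequence. They are the member promoter nearest to a peak and 2 of the neighbouring starts that lay under one, which most neighbouring starts did not. Sequences are from RefSeq (GRCm38.p6), 300 bases running 5′ to 3′ on the gene's strand from 250 bases before the start site. Of the 8 genes, 7 had an entry. In Flt1 (chr5:147725962-147726261, minus strand) the capitals mark the cyclic AMP response element TGACGTCA, which begins 81 bases before the start site. No peak covered this window, and the only saline peak overlapping a member gene began 76 bases upstream of it. In Cdc45, a replication gene next to Cldn5 (chr16:18811923-18812222, minus strand), the capitals mark the 223 bases that lay under a peak in all 3 kainic acid lists. In Abcb1b, the second P-glycoprotein gene next to Abcb1a (chr5:8797897-8798196, plus strand), they mark the 286 bases under a peak of kainic acid replicate 2 alone.
Flt1: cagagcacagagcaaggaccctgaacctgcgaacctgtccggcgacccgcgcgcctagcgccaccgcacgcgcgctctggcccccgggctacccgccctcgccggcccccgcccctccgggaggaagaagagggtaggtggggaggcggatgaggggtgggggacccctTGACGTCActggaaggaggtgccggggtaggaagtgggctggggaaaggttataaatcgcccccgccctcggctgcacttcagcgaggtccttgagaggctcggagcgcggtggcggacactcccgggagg
Cdc45: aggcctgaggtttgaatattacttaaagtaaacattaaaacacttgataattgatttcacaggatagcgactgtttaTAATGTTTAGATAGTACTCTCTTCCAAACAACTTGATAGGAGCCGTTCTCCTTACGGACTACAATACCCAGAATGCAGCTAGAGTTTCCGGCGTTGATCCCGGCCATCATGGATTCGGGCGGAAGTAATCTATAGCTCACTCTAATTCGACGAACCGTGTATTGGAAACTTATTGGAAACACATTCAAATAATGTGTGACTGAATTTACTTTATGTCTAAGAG
Abcb1b: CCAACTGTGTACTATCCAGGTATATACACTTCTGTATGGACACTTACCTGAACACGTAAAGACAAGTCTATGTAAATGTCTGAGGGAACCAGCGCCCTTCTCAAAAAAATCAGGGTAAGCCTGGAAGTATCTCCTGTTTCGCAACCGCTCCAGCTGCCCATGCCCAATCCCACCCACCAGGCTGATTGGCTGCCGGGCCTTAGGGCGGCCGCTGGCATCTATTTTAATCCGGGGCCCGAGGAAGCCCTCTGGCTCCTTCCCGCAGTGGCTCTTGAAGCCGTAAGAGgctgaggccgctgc
Read on both strands, the AP-1 site TGAGTCA was found in none of the 7 member promoters or in the Cdc45 and Abcb1b windows, and it was found in 5.20% of all 32851 promoter windows of this length. The response element TGACGTCA, which does not contain the AP-1 site, was found in 1.79% of them and, among the 7 members, in Flt1 alone. Such a match describes letters in a window, and its absence says nothing about binding outside it.

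Kainic acid peaks were called around 5 of the 8 genes, beside 78.0% of all protein-coding genes, and none of the 6 lists had a peak around the other 3, Tek, Tie1 and Slco1a4. Summed over the 8 windows, there were 3, 23 and 8 peaks in kainic acid replicates 1, 2 and 3, and 0, 2 and 0 in saline replicates 1, 2 and 3. Per 100 kb of window, this gave 0.205, 1.57 and 0.548 peaks with kainic acid and 0, 0.137 and 0 with saline. Each kainic acid library was above each saline library. The group means were 0.776 ± 0.713 (SD, n = 3) and 0.0456 ± 0.0791 (SD, n = 3), a difference of 0.730, close to the SD of the kainic acid group. Replicate 2 carried much of it, and without that library the difference was 0.331. Over all protein-coding genes the mean number per 100 kb was 0.657, 3.39 and 1.43 in the kainic acid lists and 0.000150, 0.379 and 0 in the saline lists, so in each list with peaks in the windows the 8 genes together were below the mean gene. The measures differ, as the 8 windows were pooled and the other values are means of densities by gene. The median gene had 0, 2.59 and 0.896 in kainic acid replicates 1, 2 and 3 and 0 in saline replicate 2. The 8 genes together were below it in kainic acid replicates 2 and 3. In kainic acid replicate 1 and saline replicate 2 that median is 0, so any peak in the 8 windows puts the pooled value above it. In these lists 3 and 2 of the 8 genes had a peak, beside 46.3% and 30.2% of all protein-coding genes. The whole lists held 15009, 63197 and 29650 peaks for kainic acid replicates 1, 2 and 3 and 7, 3277 and 2 for saline, so the 2 shortest saline lists could hardly have reached any gene.

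**Figure D1:**
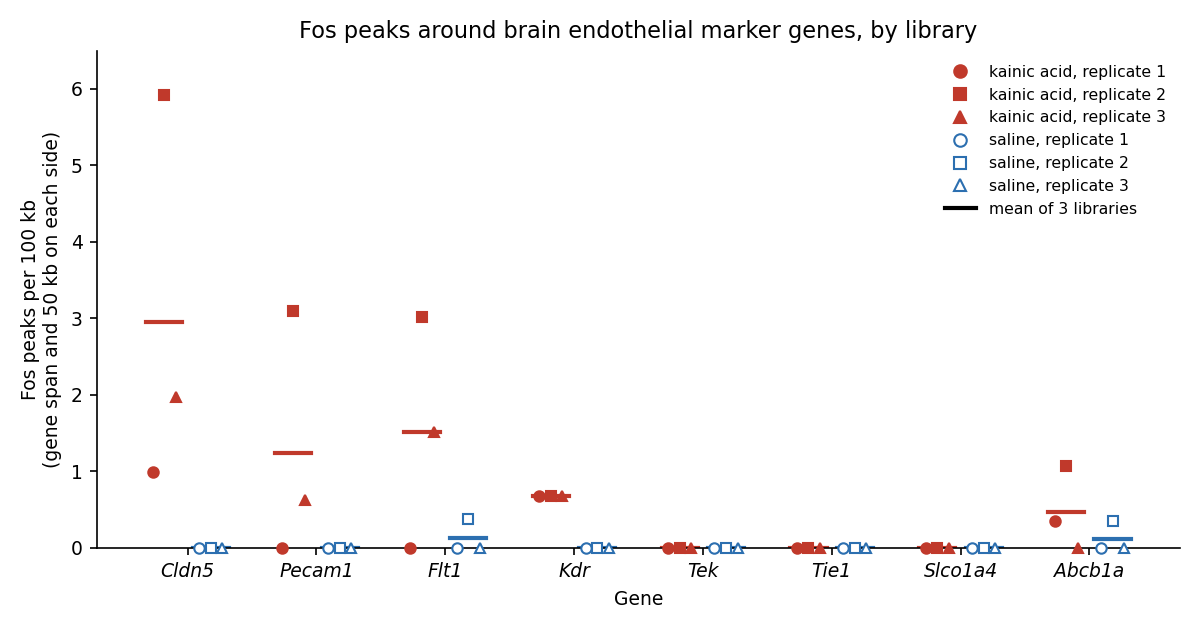
Fos peaks per 100 kb (vertical axis) in the window of each of the 8 genes (horizontal axis), with 1 symbol for each library (filled red, kainic acid; open blue, saline) and a line at the mean of 3 libraries. Kainic acid replicate 2 (squares) is the highest library at Cldn5, Pecam1, Flt1 and Abcb1a, all 3 kainic acid libraries stand at 0.684 at Kdr, and all 6 libraries stand at 0 at Tek, Tie1 and Slco1a4.

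Support by more than 1 kainic acid library was found for 5 of the 8 genes, which is 62.5%, beside 62.7% of all protein-coding genes with a region in at least 2 kainic acid lists. Such a region is a merged region that 2 or 3 of the kainic acid lists share. A region in all 3 lists was found for 2 of the 8 genes, Cldn5 and Kdr, beside 42.5% of all genes. The 3 genes with no peak compare with 21.4% of all genes that had none. The count of 5 was also taken with each kainic acid library left out, where a region had to be in both remaining lists. It could then only stay or fall. It was 2 without kainic acid replicate 2 (42.6% of all genes), 3 without replicate 3 (45.1%) and 4 without replicate 1 (61.3%). Of 24 regions with a kainic acid peak, 7 were in at least 2 lists, which is 29.2%, beside 40.3% of the 66683 such regions in the genome. The 7 regions fell to 2 without replicate 2 and to 3 without replicate 3. Of the other 17, replicate 2 alone supplied 15 and replicate 3 alone supplied 2.

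The median number of regions in at least 2 lists was 0.488 per 100 kb over the 8 genes and 0.871 over all protein-coding genes. Cldn5 had 1.97 per 100 kb, more than 76.2% of all genes. Flt1 had 0.755, Kdr 0.684, Pecam1 0.621 and Abcb1a 0.355, values above those of 38.0% to 44.3% of all genes. The 3 genes at 0 shared that value with 37.3% of all genes. By mean peaks per 100 kb, the order was Cldn5, Flt1, Pecam1, Kdr, Abcb1a, with Tek, Tie1 and Slco1a4 at 0. From Cldn5 down to Abcb1a, each gene differed from the next by less than the larger of their SDs, and the 3 genes at 0 did not differ.

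Cldn5 spans 1.42 kb on chromosome 16 (18776847 to 18778262). Its window held 1, 6 and 2 peaks in kainic acid replicates 1, 2 and 3 and none in the 3 saline lists, or 0.986, 5.92 and 1.97 peaks per 100 kb. The groups did not overlap, which was also so for 33.5% of all protein-coding genes. The mean was 2.96 ± 2.61 (SD, n = 3) against 0, and the two-sided exact permutation test over libraries gave p = 0.1, adjusted p = 0.299 over the 21883 genes (Benjamini-Hochberg). With 3 libraries against 3, 0.1 is the smallest p this test can give, so no gene could pass 0.05.

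None of the Cldn5 peaks lay in the gene or within 10 kb of it, and the nearest was 17.1 kb away, inside Cdc45. The region in all 3 lists lay 35.0 kb downstream of the Cldn5 start site (chromosome 16, 18811813 to 18812182), where Cdc45 and Ufd1, which encodes an adaptor for protein degradation, overlap at their starts. This is the region under the capitals of the Cdc45 sequence above. Its deposited folds, the authors' ratio of the summit to the local background of that library, were 3.05, 4.67 and 3.06 in kainic acid replicates 1, 2 and 3. Ranked by fold within its own list, where 0% is the strongest and 100% the weakest peak, it stood at 94.5%, 42.7% and 88.0%. By fold it was therefore among the weaker calls of 2 of the 3 lists. Its pileups, the reads over the summit as solved from the deposited fold and p, were 29, 39 and 35 in replicates 1, 2 and 3. The backgrounds were 8.85, 7.56 and 10.8 reads. A further region inside Ufd1 (chromosome 16, 18822432 to 18823513), 45.6 kb from the start site, had folds of 8.19 and 4.32 in replicates 2 and 3, at ranks of 9.97% and 40.3%, and no peak in replicate 1.

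Pecam1 spans 61.1 kb on chromosome 11 (106654213 to 106715281). There were 0, 5 and 1 peaks in kainic acid replicates 1, 2 and 3 and none in saline. The groups met at 0, the mean was 1.24 ± 1.64 peaks per 100 kb (SD, n = 3) against 0, and the exact permutation test gave p = 0.4. The peak inside the gene was in replicate 2 alone (fold 3.88). The only region in 2 lists lay 11.9 kb beyond the upper end of the gene, outside protein-coding genes (chromosome 11, 106727142 to 106727746). Its fold was 7.02 in replicate 2 (rank 15.3%) and 3.38 in replicate 3 (rank 75.4%).

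The VEGF receptor genes differed in where and how often peaks were called. Kdr, on chromosome 5 (75932827 to 75979072), had exactly 1 peak in each kainic acid list and none in saline, so its density was 0.684 per 100 kb in all 3 libraries against 0. The groups did not overlap (exact permutation p = 0.1, adjusted p = 0.299), which was also so for 33.5% of all protein-coding genes. All 3 peaks formed a single region inside the gene, 22.1 kb downstream of the start site (chromosome 5, 75955014 to 75956337). No other protein-coding gene lay in the window. The folds were 3.20, 6.02 and 5.68 in replicates 1, 2 and 3, and the ranks 91.4%, 22.9% and 17.1%. This region was thus among the stronger calls of replicates 2 and 3 and a weak call of replicate 1. By pileups solved from the deposited fold and p, which are the reads over the summit, it rested on 19, 30 and 37 reads over backgrounds of 5.25, 4.15 and 5.70 reads. It was the only region of the 8 windows in at least 2 lists when a −log10 q of at least 10 was required. The gene table does not give exons, so whether it is intronic is not stated here.

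Flt1 spans 165 kb of chromosome 5 (147561604 to 147726438) and had 0, 8 and 4 peaks in kainic acid replicates 1, 2 and 3, and 0, 1 and 0 in saline replicates 1, 2 and 3. The densities were 0, 3.02 and 1.51 per 100 kb against 0, 0.378 and 0, so the groups overlapped (exact permutation p = 0.4). With 10 regions with a kainic acid peak it had the most of the 8 genes, but 2 of them were in 2 lists and none in 3. The stronger of these lay 4.05 kb beyond the 3′ end (chromosome 5, 147556940 to 147557549), with folds of 7.29 and 3.38 and ranks of 13.9% and 75.4% in replicates 2 and 3. The other was inside the gene, 53.4 kb from the start site (chromosome 5, 147672062 to 147672576), with folds of 3.30 and 2.49 and ranks of 86.0% and 98.2%. The strongest peak of the 8 windows by rank was also near Flt1, 10.8 kb upstream of its start site (chromosome 5, 147736836 to 147737197), with a fold of 8.37 at 9.27%, but it was called in replicate 2 alone.

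Just upstream of the Flt1 start the only call was from saline. Saline replicate 2 had a peak there (chromosome 5, 147726337 to 147726647), 0.326 kb upstream of the start site, with a fold of 3.77 at rank 68.7% and 13 reads over the summit. No kainic acid list had a peak at this place. A peak that is missing from a list was not called there, which does not show that Fos was not bound.

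The angiopoietin receptor genes had no peak in any list. The window of Tek on chromosome 4 (94739086 to 94874976) was 236 kb long, and the nearest kainic acid peak, part of a region in 2 lists, lay 71.2 kb from the gene. For Tie1, also on chromosome 4 (118471191 to 118489849), the nearest such region was 53.3 kb away (118543120 to 118543693), just beyond the reach of 50 kb. With a reach of 100 kb both genes therefore had 1 region in at least 2 lists.

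Of the transporter genes, Slco1a4 on chromosome 6 (141805438 to 141856284) stood farthest from any call. Its nearest kainic acid peak was 184 kb away and its nearest region in at least 2 lists 396 kb, and it had no region in at least 2 lists with the reach of 100 kb either. Abcb1a, on chromosome 5 (8567091 to 8748575), had 1, 3 and 0 peaks in kainic acid replicates 1, 2 and 3 and 0, 1 and 0 in saline. The densities overlapped, at 0.355, 1.07 and 0 against 0, 0.355 and 0 per 100 kb (exact permutation p = 0.7). Its region in 2 lists (chromosome 5, 8621494 to 8621972) lay 54.4 kb downstream of the start site, where the span of Abcb1a overlaps that of Rundc3b. The folds were 4.29 in replicate 1 and 3.84 in replicate 2, at ranks of 53.9% and 67.8%. A further 2 calls of this window were at the start of Abcb1b, 49.2 and 49.9 kb from Abcb1a and so just inside the reach, though the summit of the second lay just beyond it. The first, in kainic acid replicate 2 (fold 4.08), covers the capitals of the Abcb1b sequence above, and the second, in saline replicate 2 (fold 4.63, rank 27.1%), lies downstream of it without overlap. The saline peaks of the 2 genes Flt1 and Abcb1a compare with 30.2% of all protein-coding genes with a saline peak in the window. Counted by summit, the saline peak of Abcb1a would fall outside its window.

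**Figure D2:**
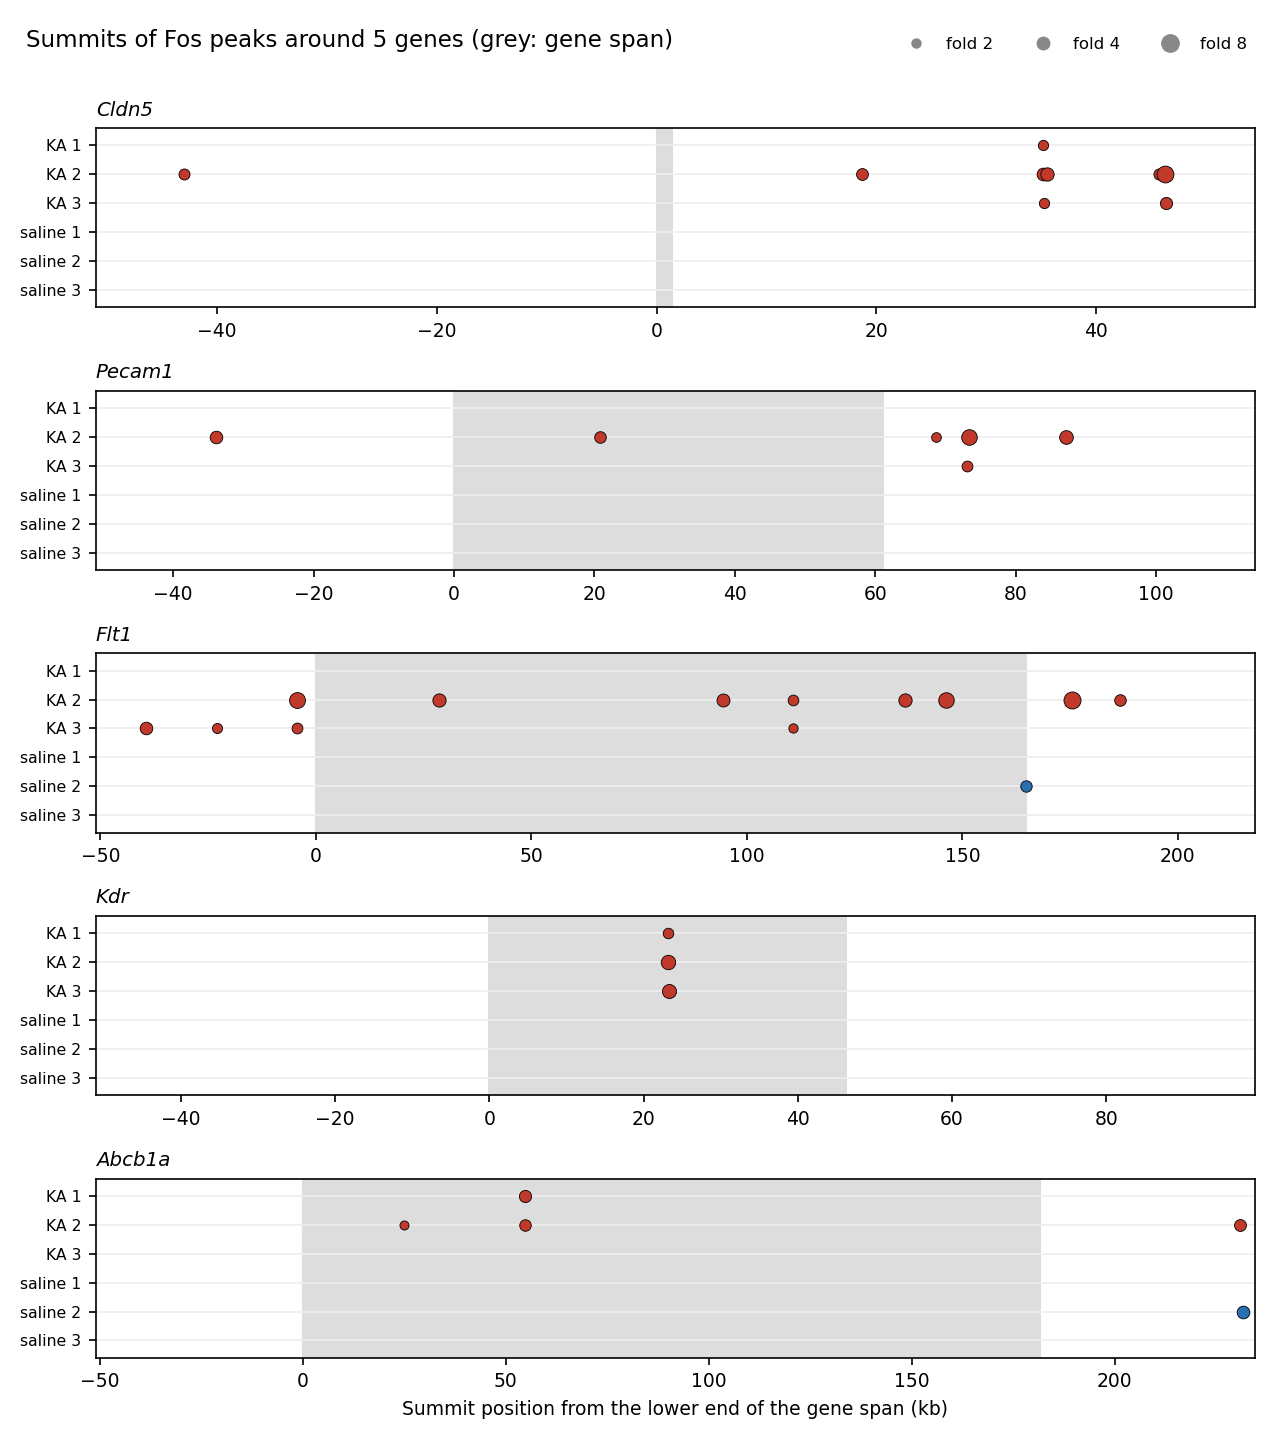
Summits of all peaks around the 5 genes with any peak, by distance in kb from the lower end of the gene span (horizontal axis), with 1 row for each library (KA, kainic acid, red; saline, blue) and dot area in proportion to the deposited fold. At Kdr the 3 kainic acid libraries have their only summit at the same place inside the gene (grey), and at Cldn5 all summits lie outside the gene. The 2 saline summits are at the start of Flt1 and just beyond the right edge of the Abcb1a window, which that peak enters by its side only.

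The positions of the regions varied. Of the 24 regions with a kainic acid peak, 9 overlapped the member gene and 15 lay outside it. Of the 7 in at least 2 lists, 3 overlapped the member gene, at Kdr, Flt1 and Abcb1a, and 4 did not. In all, 3 of the 7 overlapped another protein-coding gene. None of the 7 covered the start site of a member. Neither of the 2 saline regions overlapped a kainic acid region. Peak widths ran from 207 to 1280 bp with a median of 353 bp.

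By fold, the peaks of the 8 windows were mostly weak calls in replicates 1 and 3. In kainic acid replicate 1 the 3 peaks ranked from 53.9% to 94.5% with a median of 91.4%. In replicate 3 the 8 peaks ranked from 17.1% to 98.2% with a median of 75.4%, and 3 were in the upper 50%. In replicate 2 the 23 peaks ranked from 9.27% to 99.5% with a median of 42.7%, and 13 were in the upper 50%. The 36 peaks rested on 12 to 48 reads over the summit. Ranks come from lists of different lengths and are not comparable between libraries.

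**Figure D3:**
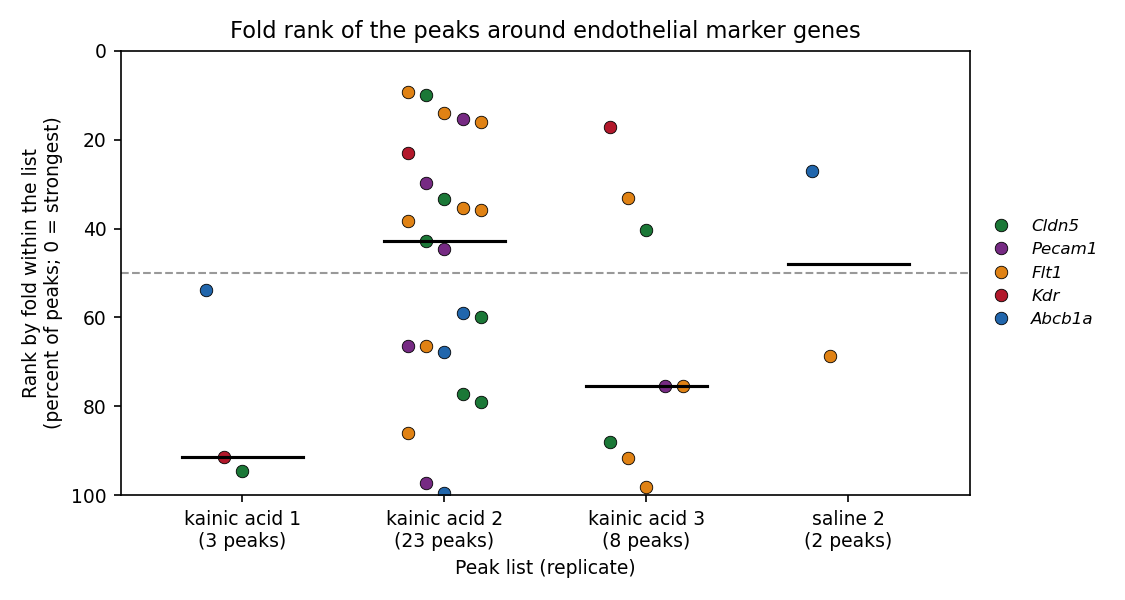
Rank of each peak by deposited fold within its list, in percent of the list's peaks with the strongest at the top (vertical axis), for the 4 lists with a peak in the windows (horizontal axis); colours give the gene, black lines the median, and the dashed line 50%. All 3 peaks of kainic acid replicate 1 lie below the dashed line, and the 23 of replicate 2 spread from 9.27% to 99.5%.

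Other genes of brain endothelium were counted in the same way. Of 30 further endothelial and blood-brain barrier genes, 22 had a region in at least 2 kainic acid lists, 73.3% beside the 62.7% of all genes, and 19 had one in all 3 lists, beside 42.5% of all genes. Their median was 1.63 regions per 100 kb, against 0.488 for the 8 markers, and this difference was not tested. The windows of Foxf2 and Foxq1 overlap. The highest densities were at Slc16a1 (7.51 regions in at least 2 lists per 100 kb), a monocarboxylate transporter, at Nos3 (5.01), endothelial nitric oxide synthase, at Mfsd2a (4.37), the lipid transporter of the barrier, at Mmrn2 (3.88), an extracellular matrix protein, at Emcn (3.16), endomucin, and at Slc2a1 (3.11), the glucose transporter. Slc16a1 had 4, 20 and 10 peaks in kainic acid replicates 1, 2 and 3 and 0, 2 and 0 in saline. No kainic acid peak was called around 5 of the 30, namely Abcg2, Foxf2, Itm2a, Ly6c1 and Sox17, beside 22.0% of all genes. A saline peak, always of replicate 2, was called around 7 of the 30, namely Eng, Mfsd2a and Slc16a1 with 2 each and Cdh5, Egfl7, Robo4 and Slc2a1 with 1 each. Over all genes the share with a saline peak was 30.2%. Slc16a1 and Slc2a1 are also made by cells other than endothelium, and each window holds other genes.

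A region in at least 2 kainic acid lists was found for 4 of the 5 ligands of these receptors, beside 62.7% of all protein-coding genes. Angpt2, which binds Tek, had 2, 5 and 3 kainic acid peaks in replicates 1, 2 and 3 and no saline peak, with 3 regions in at least 2 lists. Angpt1, the activating ligand of Tek, had 1, 4 and 2 peaks and 2 such regions. Vegfa, the main ligand of Kdr, had 0, 2 and 0 peaks and no such region, with 1 peak in saline replicate 2. Vegfb and Pgf, ligands of Flt1, had 1 region each, and Vegfb had 4 saline peaks, all of replicate 2. The exact permutation test gave p = 0.1 for Angpt1 and Angpt2 (adjusted p = 0.299) and from 0.4 to 1.00 for the other 3 ligands. At Angpt1 and Angpt2 every kainic acid library was above every saline library, which was also so for 33.5% of all protein-coding genes.

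Markers of other cell types of the hippocampus were set beside the endothelial ones. A region in at least 2 kainic acid lists was found for 8 of 8 neuronal genes, 7 of 8 microglial genes, 7 of 8 mural cell genes and 6 of 8 astrocyte genes, against 5 of 8 here. Over all protein-coding genes the share was 62.7%, close to the 62.5% of the 8 endothelial markers. The median number of such regions per 100 kb was 3.01 for the neuronal, 0.948 for the microglial, 0.839 for the mural cell and 0.908 for the astrocyte genes, against 0.488 for the 8 endothelial markers. The median of all protein-coding genes was 0.871, near the microglial, mural cell and astrocyte values. The windows of the mural cell genes Abcc9 and Kcnj8 overlap. These lists have 8 genes each, and the differences between them were not tested.

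**Figure D4:**
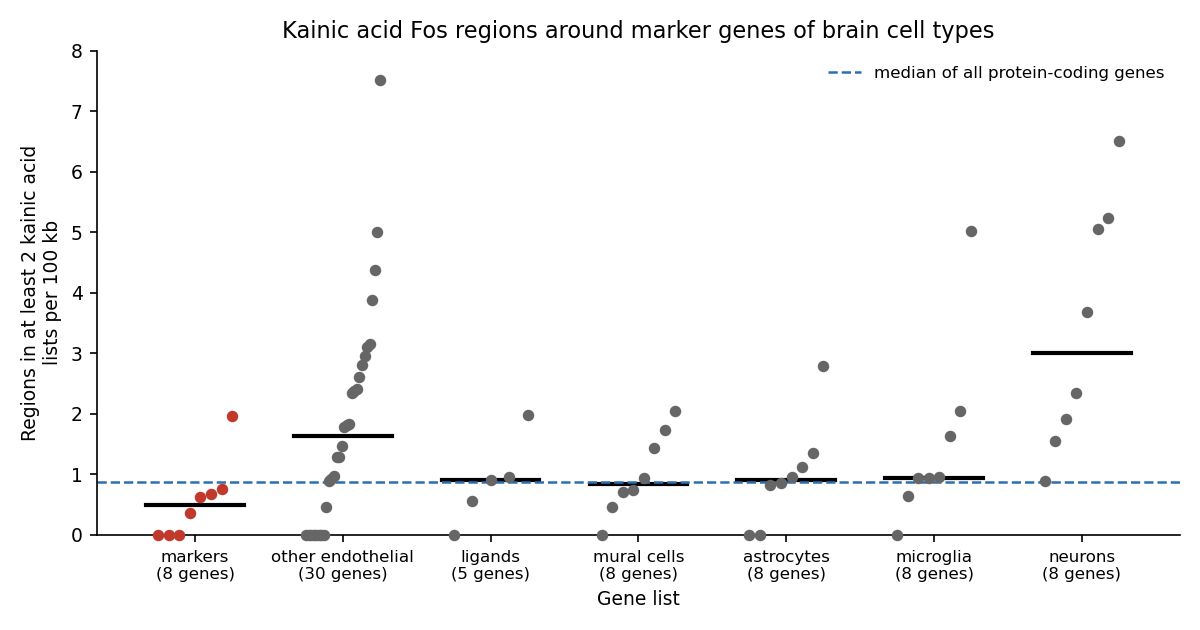
Regions in at least 2 kainic acid lists per 100 kb of window (vertical axis) for each gene of 7 lists (horizontal axis), with a black line at the list's median and a dashed line at the median of all protein-coding genes, 0.871. The 8 endothelial markers (red, labelled markers) run from 0 to 1.97 with a median of 0.488, and the 8 neuronal genes run from 0.891 to 6.51 with a median of 3.01.

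The protein-coding genes most like the mean of the 8 markers over the 6 lists, by Euclidean distance of log2(peaks per 100 kb + 1), were Csgalnact1 (0.129), Epha3 (0.130), Reln (0.143), Cfap299 (0.154) and Gli3 (0.161). All 5 had peaks in all 3 kainic acid lists and none in the saline lists, at densities from 1.04 to 1.22 per 100 kb in replicate 2. These values largely follow from how the genes were chosen. The mean is not the pattern of most markers, as only Cldn5 and Kdr of the 8 had peaks in all 3 kainic acid lists.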

How the data were processed

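Fos ChIP-seq peak lists of mouse hippocampus, 3 saline and 3 kainic acid, were used, 1 per library and none pooled. Per the submitters' processing notes, Trim Galore 0.6.4, Bowtie2 2.3.4.3, MACS2 and deepTools 3.5.0 were used with genome build mm10. The lists' peak names carry a mapping quality of 30. Which cutoff and which control were used is not given in the sources used here.

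The authors deposited for each peak a score (10 times the −log10 q, rounded down), a fold that is a linear ratio of summit to local background, a −log10 p and a −log10 q. These belong to 1 library and are not scaled between libraries, so their use was limited to ranking and filtering inside each list.

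Peaks were counted in windows of 50 kb around RefSeq gene spans (GRCm38.p6, the assembly behind mm10), and peaks overlapping by at least 1 bp were merged into regions. Pileup k and background b were solved from fold = (k + 1)/(b + 1) and the Poisson p, within 0.001 in −log10 p for 36 of 36 peaks. This assumes MACS2's usual formulas and gives no library total. Counting, merging and solving were tested on simulated data. Densities of the libraries were compared by exact permutation, two-sided (20 assignments), adjusted by the Benjamini-Hochberg method over 21883 genes. Python 3.11.15, pandas 2.3.3, NumPy 2.4.6 and SciPy 1.17.1 were used.

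The genes and lists were chosen with earlier results of these data known. Named were all 8 genes, their regions in at least 2 kainic acid lists or with a saline peak, the 6 further endothelial genes with the most regions in at least 2 kainic acid lists per 100 kb, those without a kainic acid peak, 6 with a saline peak (Slc2a1, the seventh, is named for its regions per 100 kb), and the 5 genes of most similar pattern. Some peaks of 1 kainic acid list were also named, chosen by their place or fold. Exons were not used, and the sequence of the Kdr region is not analysed here. Alternatives were the reach, the −log10 q, list length, summits, overlap, support and each library left out.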

Additional observations from a re-analysis of the deposited data

How the results depend on the processing

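The number of genes with a region in at least 2 kainic acid lists, 5 of 8, was 3 with a reach of 10 kb, 2 with −log10 q of at least 5, 1 with at least 10, 2 with equal numbers of kainic acid peaks (15009 each) and 2 when all 3 lists were required. It was 7 with a reach of 100 kb, and it stayed 5 with peaks counted by summit, with overlap of 50% of the shorter peak and with support in at least 1 list. The number of such regions, 7, was 4 with a reach of 10 kb and 14 with 100 kb, 3 with −log10 q of at least 5, 1 with at least 10, 3 with equal numbers of peaks, 24 in at least 1 list and 2 in all 3. Leaving out one library gave 2 to 5 genes and 2 to 7 regions, the lowest without kainic acid replicate 2. The upper values are those without a saline library, which by construction cannot change either count. Without a kainic acid library, where both remaining lists had to share a region, the counts reached at most 4 genes and 6 regions. Cldn5 and Kdr kept a region under equal numbers and under −log10 q of at least 5, and Cldn5 had none within 10 kb. The background shares moved too, to 40.0% of all genes within 10 kb, 74.7% within 100 kb, 54.7% at −log10 q of 5 or more, 36.1% at 10 or more, and 47.5% with equal numbers.

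The difference in peaks per 100 kb, 0.730, ran from 0.331 to 1.02 with one library left out. It was 0.456 with −log10 q of at least 5, 0.205 with at least 10, 0.274 with equal numbers of kainic acid peaks, 0.609 within 10 kb, 0.929 within 100 kb and 0.753 by summit. By gene, where only the reach, −log10 q of at least 5 and the left-out libraries were run beside the block, the difference at Cldn5 went to 0 within 10 kb, and those of Tek and Tie1, 0 within 50 kb, were 0.198 and 0.305 within 100 kb. Without kainic acid replicate 2 it was 1.48 at Cldn5, 0.310 at Pecam1, 0.629 at Flt1, 0.0592 at Abcb1a and still 0.684 at Kdr. Stability cannot be read from the exact test, whose smallest p with 3 against 3 is 0.1. Library numbers run from 1 to 3 in each group. With the replicate block the difference was 0.730, which a block cannot change, and the exact sign-flip test gave p = 0.25 for Cldn5 and Kdr, the smallest that 3 pairs allow. Deviations of same-numbered libraries over all genes correlated at 0.376, 0.371 and 0.0329, but saline replicates 1 and 3 hold 7 and 2 peaks, so these correlations follow saline replicate 2 and give no test of pairing. No label states a pairing, and none was assumed. Read totals are not in the lists, and calls of 12 to 20 reads limit what a missing peak can show.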

Other observations

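Some peaks of these windows had identical values. The peak of kainic acid replicate 3 beyond Pecam1 and that beyond the 3′ end of Flt1 had the same deposited fold of 3.38 and the same rank of 22349 of 29650, and both had 16 reads over a background of 4.03. In replicate 2, a peak inside Pecam1 and a peak 21.9 kb upstream of Flt1 likewise shared a fold of 3.88, with 19 reads over 4.15.

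Regions in kainic acid replicate 2 alone included both stronger and weak calls of that list, at ranks from 9.27% to 99.5%. The 7 regions in at least 2 lists ranked from 9.97% to 86.0% in replicate 2. Of the regions in replicate 2 alone, the strongest were at Flt1. Beside the peak upstream of Flt1 at 9.27%, a peak inside Flt1 (chromosome 5, 147707577 to 147707995) had a fold of 6.94 at 16.0% with 29 reads over the summit, and replicates 1 and 3 had no peak there. The region inside Kdr had a similar fold in replicate 2, 6.02 with 30 reads, and was called in all 3 lists.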
